A study of Mus musculus with 34 samples.

Results

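Lipids travel in blood as lipoproteins, particles of fat and cholesterol held together by apolipoproteins, and 9 genes of this system were followed in the liver of pups whose thyroid hormone (TH) levels had been perturbed for a short time: Apoa1, Apoa4, Apoa5, Apob, Apoc3, Apoe, Lpl, Lipc and Angptl4. The members were chosen by name, and every non-control probe whose RefSeq accession belonged to one of them was taken, which gave 14 of the 41174 probes on the array and 9 of its 33269 genes. None of the 14 probes passed the test in any comparison of the study, in which between 0% and 3.07% of all probes did. The lowest adjusted p among the comparisons within a sex was 0.363 (limma), and it belonged to Angptl4 in female hyper pups, where the level was 1.96-fold below that of female controls.

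Apob is the structural protein of very low density lipoproteins and chylomicrons, the particles that carry triglyceride out of the liver and the intestine. Apoa1 is the main protein of high density lipoprotein (HDL), Apoa4 is an exchangeable apolipoprotein made in the intestine and, in mice, in the liver, Apoe is a ligand of receptors that clear particles from blood, and Apoc3 and Apoa5 slow and favour the removal of triglyceride, respectively. Lpl is the lipase that splits triglyceride at the vessel wall, Lipc is the lipase of the liver, and Angptl4 is a secreted inhibitor of Lpl. In rodents, Lpl is made in the liver mainly around birth and suckling. TH acts on the liver through nuclear receptors that bind DNA, often at repeats of the half-site AGGTCA, and changes in TH are known to alter blood lipids.

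The liver RNA of 34 C57BL/6 pups was measured at postnatal day (PND) 15, 1 pup per array, with pup RNA labelled by Cy5 and a universal mouse reference RNA by Cy3, and the dyes were not swapped. There were 4 male and 4 female controls, 4 male and 5 female hypo pups, 5 hyper pups of each sex, and 4 male and 3 female hypo+ pups. By the methods, 2 further arrays of each sex had been removed as outliers, judged by clustering of the measured signals. Dams of the hypo and hypo+ pups drank methimazole (0.05%) and sodium perchlorate (1%), which block TH synthesis and iodide uptake, for 3 days from PND 13 by the labels or PND 12 by the study's methods. All pups were injected i.p. 4 h before collection: hyper pups received 50 µg of T4 and 5 µg of T3 per 100 g of body weight, hypo+ pups 20 µg and 2 µg, and control and hypo pups saline, so that the vehicle injection was common to all groups. By the methods, the pups given goitrogens and hormone were divided by their measured serum T4, and only those of the lower range were kept as hypo+ pups on the arrays. Pups of both sexes could share a dam, and the p-values treat each pup as a separate sample. In whole liver, fewer cells of a type and less RNA per cell cannot be told apart.

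Apoa1, Apoc3, Apoa4 and Apoa5 follow one another on chromosome 9, with 0 other genes listed between them. Of these neighbours, Apoa1 and Apoa5 varied together from pup to pup in the log2 ratios, with r = 0.93 after group means were removed. Apoa4, measured by a far dimmer probe, did not follow them closely. In the Cy5 signal alone, r between Apoa1 and Apoa5 was 0.19. With Itih2, a gene picked for its likeness to Apoa1, the r of Apoa1 was 0.98. As a description, the 250 bases before the start site are shown for Apoa1, Apoa4 and Apoa5. They are RefSeq sequences of build GRCm38.p6 on the + strand, and capitals mark the half-site GGGTCA on either strand and the TATA box TATAAA on the strand of the gene.
Apoa1, chr9:46228380-46228629: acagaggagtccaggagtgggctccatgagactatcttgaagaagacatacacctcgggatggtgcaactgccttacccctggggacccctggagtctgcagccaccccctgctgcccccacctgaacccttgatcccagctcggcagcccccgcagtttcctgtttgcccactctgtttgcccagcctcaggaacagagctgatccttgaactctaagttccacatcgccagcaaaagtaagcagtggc
Apoa4, chr9:46240594-46240843: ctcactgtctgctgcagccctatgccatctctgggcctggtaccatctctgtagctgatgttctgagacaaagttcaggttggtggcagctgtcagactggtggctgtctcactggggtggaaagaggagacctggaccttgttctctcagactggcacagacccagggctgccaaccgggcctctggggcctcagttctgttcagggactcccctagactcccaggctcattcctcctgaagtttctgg
Apoa5, chr9:46268358-46268607: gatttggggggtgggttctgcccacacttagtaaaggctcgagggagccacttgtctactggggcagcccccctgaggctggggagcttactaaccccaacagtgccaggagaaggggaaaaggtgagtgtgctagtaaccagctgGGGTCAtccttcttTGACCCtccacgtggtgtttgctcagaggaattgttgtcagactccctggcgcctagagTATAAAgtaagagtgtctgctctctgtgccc
In the Apoa5 window, GGGTCA began 104 bases before the start site on the strand of the gene and again, on the opposite strand, at 90 bases, and TATAAA began at 31 bases. The Apoa1 and Apoa4 windows held neither half-site nor TATAAA. Over all 32851 windows of this length, 14% held AGGTCA and 11.6% held GGGTCA on either strand, and 7.59% held TATAAA on the strand of the gene. Both half-sites were also searched as repeats on the same strand, in any combination, with 1 base between them, which 0.0913% of all windows held, or with 4 bases between them, which 0.0335% held. None of the 10 windows available for 6 of the 9 genes held such a repeat. In 1 of the 2 Lipc windows, AGGTCA began 88 bases before the start site and, on the opposite strand, at 76 bases.

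Every value below is a log2 ratio of pup to reference RNA after loess normalization within the array. All 14 probes were well above background in Cy5 on all 34 arrays and none was saturated, whereas the reference channel was well above background on 28 arrays for Apoa4 and on 33 for the Apob probe A_51_P380650. The share of spots well above background ranged from 60.8% to 79.4% of an array. Of 10 hepatocyte marker genes, 8 were on the array, all 8 lay above the limit of the negative controls in every pup, and their summed Cy5 signal was 1467120 to 1922930. The 8 pups of slides B (males) and H (females), each slide holding 1 pup of every treatment, stood apart: they lay above the mean of their group in 8 of 8 pups for 11 of the 14 probes, by an average of up to 0.65 on the log2 scale (Apoe). On these slides the reference signal of Apoe had a median of 7256, against 9509 on the others, whereas the pup signal had medians of 537573 and 493408. Slide F held only hypo+ pups, 1 of each sex, which have no pup of another treatment on their slide, whereas each other slide held several treatments. Main results are also given with slide as a block and, where they moved most, without slides B and H.

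Angptl4 showed the largest difference from control of any member. In female controls, the 4 pups had log2 ratios of 0.66, 0.97, 1.65 and 1.94 (1.30 ± 0.59 SD, n = 4). In female hyper pups, the 5 values were 0.20, 0.25, 0.35, 0.40 and 0.45 (0.33 ± 0.10 SD, n = 5), so that every hyper female lay below every control, where 2.55% of all probes had groups without overlap. The log2 fold-change was -0.97 (SE 0.28, 95% interval from -1.57 to -0.38), with an adjusted p of 0.363 in limma. On each of the 4 slides that held both groups, the hyper pup was lower, by differences from -1.49 to -0.31. With slide as a block the value was -0.94 and the adjusted p 0.167, and without slide H the value was -1.19.

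In hypo females the mean of Angptl4 was also below that of the controls, with overlap. In female hypo pups Angptl4 was at 0.32, 0.34, 0.67, 0.79 and 1.30 (0.68 ± 0.40 SD, n = 5), and in female hypo+ pups at 0.56, 1.37 and 2.07 (1.33 ± 0.75 SD, n = 3). The hypo females overlapped the controls at their upper end, and the hypo+ females spanned the whole control range. The log2 fold-change of female hypo pups was -0.62 (95% interval from -1.22 to -0.02), and 3 of 4 slides showed it. It was -0.99 without slide H and -0.41 without control pup 523.

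In male controls Angptl4 was at 0.46, 1.53, 1.56 and 2.76 (1.58 ± 0.94 SD, n = 4). Male hypo pups were at 0.55, 0.76, 0.96 and 1.19 (0.87 ± 0.28 SD, n = 4) and male hyper pups at 0.49, 0.69, 0.71, 0.86 and 1.61 (0.87 ± 0.43 SD, n = 5). Of the males, 3 of 4 controls thus lay above all hypo pups, and 1 control lay below all hyper and hypo pups. Male hypo+ pups were at 0.30, 0.50, 1.32 and 2.36 (1.12 ± 0.94 SD, n = 4), which overlapped every other group. The log2 fold-change was -0.71 in hypo males (95% interval from -1.64 to 0.21) and -0.71 in hyper males (from -1.58 to 0.17), neither of which passed the test. Without slide B they were -1.12 and -0.98, and without control pup 522 alone they were -0.32 and -0.31.

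The lowest and the highest of these male controls, pups 832 and 522, were also those with a high signal of pancreatic acinar genes, whose summed Cy5 signal was 167905 and 185052. Of 14 acinar genes, 13 were on the array and 12 lay above the limit of the negative controls in every male control. Their sum ranged from 11764.5 to 185052 in male controls, from 9724.5 to 35100.5 in female controls and from 6532 to 18709 in the other groups, and its part in the Angptl4 values was not tested. Averaged over both sexes, the log2 fold-change of Angptl4 in hyper pups was -0.84 (95% interval from -1.38 to -0.30, adjusted p = 0.194, limma). It was -1.03 without pup 832 (adjusted p = 0.0480, limma), the only call of Angptl4 under any alternative tried.

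Lpl, the lipase that Angptl4 inhibits, was measured by 2 probes. For the brighter one (A_51_P259296), female controls were at 4.10, 4.11, 4.15 and 4.27 (4.16 ± 0.08 SD, n = 4) and female hyper pups at 3.66, 3.70, 3.79, 3.87 and 3.98 (3.80 ± 0.13 SD, n = 5). Every hyper female lay below every control. The log2 fold-change was -0.36 (SE 0.11, 95% interval from -0.59 to -0.13), with an adjusted p of 0.431 in limma. The hyper pup was lower on 4 of 4 slides, by differences from -0.61 to -0.28, and the value with slide as a block was -0.38. The second probe (A_52_P257812) gave -0.20 (95% interval from -0.41 to 0.01), and it too was lower on 4 of 4 slides.

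Hypo pups stood on the other side of the controls at the brighter Lpl probe. Male controls were at 3.83, 3.98, 4.29 and 4.36 (4.11 ± 0.25 SD, n = 4) and male hypo pups at 4.19, 4.31, 4.60 and 4.80 (4.47 ± 0.28 SD, n = 4), so that 2 hypo males lay above all controls. The log2 fold-change was 0.36 (95% interval from 0.06 to 0.66), with an adjusted p of 0.803 in limma. On 3 of 3 slides the hypo male was the higher one, by 0.21 to 0.44, and with slide as a block the interval ran from 0.18 to 0.49 (adjusted p = 0.165, limma). Female hypo pups were at 4.10, 4.35, 4.36, 4.41 and 4.57 (4.36 ± 0.17 SD, n = 5), of which 4 of 5 lay above all female controls. Their log2 fold-change was 0.20 (95% interval from -0.03 to 0.43). The second probe gave 0.12 in hypo males and 0.03 in hypo females, and over the 34 pups the 2 Lpl probes correlated with r = 0.52, less than any other pair of probes of a member. The second probe thus gave smaller values in hypo pups than the first.

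Of the remaining groups at the brighter Lpl probe, male hypo+ pups had a log2 fold-change of 0.18 from control and were higher on 3 of 3 slides (from 0.03 to 0.31). Female hypo+ pups gave 0.05 and were higher on 1 of 2 slides, and male hyper pups gave -0.08 and were lower on 3 of 4. Hypo+ pups lay below the hypo pup of their slide on 4 of 4 slides (from -0.72 to -0.04). At the second probe, male hypo+ pups were higher than control on 1 of 3 slides. Male hyper pups were at 3.77, 3.98, 4.05, 4.11 and 4.25 (4.03 ± 0.18 SD, n = 5), male hypo+ pups at 4.14, 4.21, 4.32 and 4.53 (4.30 ± 0.17 SD, n = 4) and female hypo+ pups at 3.85, 4.31 and 4.46 (4.21 ± 0.32 SD, n = 3). All of these groups overlapped the controls of their sex. Averaged over the sexes, the brighter probe gave 0.28 in hypo pups (95% interval from 0.09 to 0.47, adjusted p = 0.204) and -0.22 in hyper pups (from -0.41 to -0.04, adjusted p = 0.500), both in limma. Over the alternatives of processing and modelling, several of which leave a fold-change as it is by construction, Lpl at this probe ran from 0.20 to 0.39 in hypo males, 0.11 to 0.29 in hypo females, -0.20 to -0.02 in hyper males and -0.39 to -0.22 in hyper females. When 1 array was left out, the ranges were 0.25 to 0.45, 0.15 to 0.26, -0.18 to -0.001 and -0.40 to -0.32 in the same order.

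**Figure D1:**
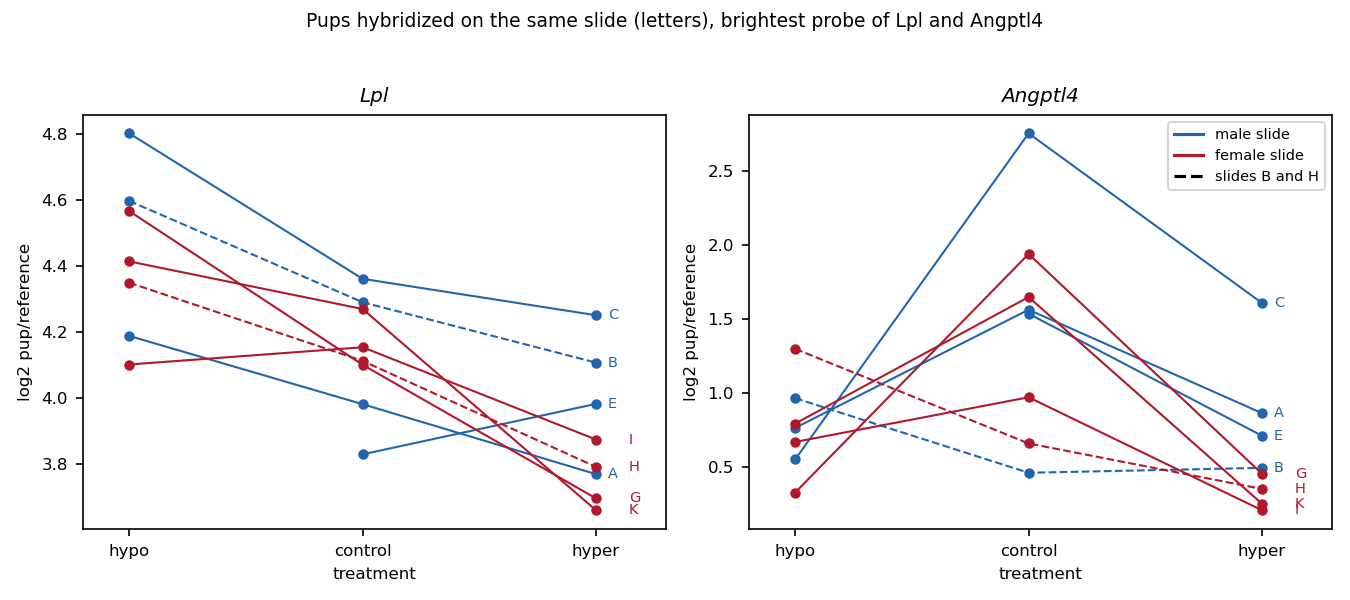
Log2 ratio of pup to reference RNA (y axis) for the brighter Lpl probe and for Angptl4 in hypo, control and hyper pups (x axis), with a line joining pups hybridized on the same slide (letters), blue for male and red for female slides and dashed for slides B and H. At Lpl the hyper pup lies below its control on 7 of 8 slides and the hypo pup above it on 6 of 7; at Angptl4 the hyper pup lies below on 7 of 8 and the hypo pup below on 5 of 7.

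The hepatic lipase Lipc was called in no comparison. Its group means ran from 3.06 in male hypo pups to 3.37 in female hypo+ pups, a range of 0.31, whereas single pups ran from 2.80 to 3.87. The highest pup of each of the 8 groups was the one on slide B or H. Against the control of the same slide, Lipc was lower on 6 of 7 slides in hypo pups (from -0.24 to 0.02), 7 of 8 in hyper pups (from -0.18 to 0.12) and 5 of 5 in hypo+ pups (from -0.32 to -0.01). The residual SD of Lipc was 0.316 without slide in the model and 0.0841 with it in males, and 0.327 and 0.0846 in females. With slide as a block, the value farthest from 0 among its comparisons was -0.21 in hypo+ males (95% interval from -0.35 to -0.06, adjusted p = 0.416, limma).

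Among the apolipoproteins, Apoa4 had the largest difference relative to its error. Female controls were at 1.77, 2.02, 2.23 and 2.31 (2.08 ± 0.24 SD, n = 4) and female hypo pups at 1.55, 1.59, 1.85, 1.86 and 1.93 (1.75 ± 0.17 SD, n = 5). Only the lowest control lay within the range of the hypo females. The log2 fold-change was -0.33 (SE 0.11, 95% interval from -0.55 to -0.10), with an adjusted p of 0.568 in limma, and 3 of 4 slides showed it. In males, controls were at 1.71, 1.96, 2.20 and 2.20 (2.02 ± 0.24 SD, n = 4), hypo pups at 1.71, 1.75, 1.94 and 1.94 (1.84 ± 0.12 SD, n = 4) and hypo+ pups at 1.55, 1.56, 1.81 and 1.89 (1.70 ± 0.17 SD, n = 4).

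Male hypo+ pups overlapped the controls only at the lowest control, and their log2 fold-change was -0.32 (95% interval from -0.61 to -0.03, adjusted p = 0.619, limma). Male hyper pups were at 1.92, 2.01, 2.14, 2.28 and 2.60 (2.19 ± 0.27 SD, n = 5), female hyper pups at 1.93, 1.99, 2.00, 2.11 and 2.21 (2.05 ± 0.11 SD, n = 5) and female hypo+ pups at 1.85, 1.96 and 2.10 (1.97 ± 0.12 SD, n = 3). These 3 groups overlapped their controls. Over the alternatives of processing and modelling, Apoa4 in hypo pups ran from -0.33 to -0.04 in females and from -0.24 to -0.06 in males. When 1 array was left out, Apoa4 ran from -0.43 to -0.25 in hypo females and from -0.29 to -0.12 in hypo males. In hyper females its sign changed with the alternative, between -0.30 and 0.17.

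**Figure D2:**
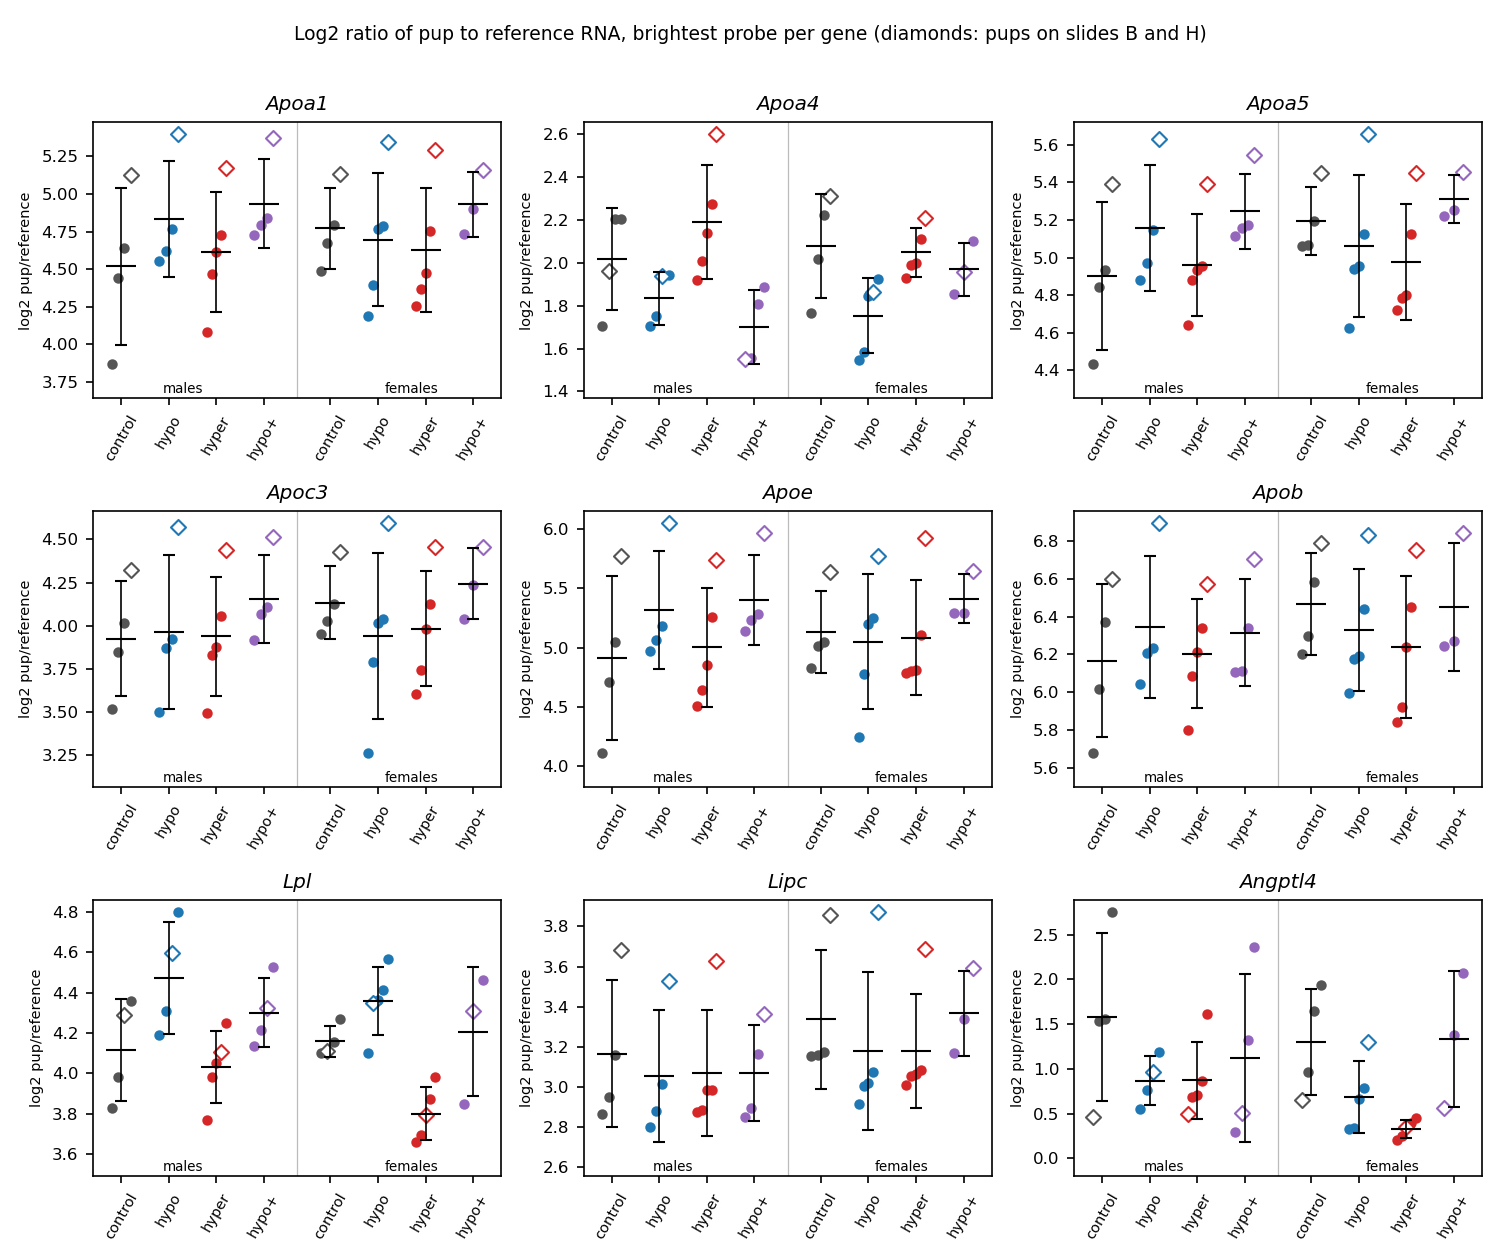
Log2 ratio of pup to reference RNA (y axis) for each of the 34 pups by sex and treatment (x axis), at the probe of highest signal for each of the 9 genes, with lines for the group mean and bars of 1 SD (n = 3 to 5), and diamonds for pups on slides B and H. The y axes differ between genes and do not start at 0. The diamonds lie at the top of every group for Apoa1, Apoc3, Apoa5, Apoe, Apob and Lipc, while at Angptl4 all 5 hyper females lie below all female controls.

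Apoa1, Apoa5, Apoc3 and Apoe overlapped between all groups compared. Apoa1 was at 3.87, 4.44, 4.64 and 5.13 in male controls (4.52 ± 0.52 SD, n = 4) and at 4.56, 4.62, 4.77 and 5.40 in male hypo pups (4.84 ± 0.39 SD, n = 4). Apoe was at 4.11, 4.71, 5.04 and 5.77 in male controls (4.91 ± 0.69 SD, n = 4) and at 4.97, 5.07, 5.18 and 6.05 in male hypo pups (5.32 ± 0.50 SD, n = 4). For both genes the highest pup of either group was the one on slide B, and the lowest control was the one on slide A. The log2 fold-changes were 0.32 for Apoa1 (95% interval from -0.23 to 0.86) and 0.41 for Apoe (from -0.30 to 1.12). With slide as a block their intervals ran from 0.13 to 0.51 (adjusted p = 0.290, limma) and from 0.14 to 0.69 (adjusted p = 0.366, limma), which excluded 0 but did not pass the test over all probes.

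Both probes were printed in 10 spots each. The SD between spots of an array had a median of 0.0438 for Apoa1 and 0.0333 for Apoe, against SDs between pups of a group of 0.389 and 0.493. The error between spots of an array does not include that between arrays or slides. From the Cy5 signal alone, quantile-normalized between arrays, the SD between pups was 0.133 for Apoa1 and 0.0311 for Apoe, and the values of Apoa1 and Apoe in hypo males became -0.11 and 0.01. Quantile normalization gives a probe of almost the same top rank almost the same value on every array. By mean Cy5 signal, Apoe stood at percentile 99.995 of all probes and Apoa1 at 99.88. These SDs, above all that of Apoe, and the Apoe value of 0.01 therefore do not measure the spread or difference between pups. Using Cy5 alone drops the reference channel and replaces the loess by quantile normalization at the same time. Which of these turned the sign of Apoa1 was not tested.

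Group means of the other probes lay close together. At the brighter Apoa5 probe (A_51_P259930) they ran from 4.90 in male controls to 5.31 in female hypo+ pups, and at the brighter Apoc3 probe (A_51_P310629) from 3.92 in male controls to 4.24 in female hypo+ pups. The second probes of both genes followed the first, with r = 0.95 for Apoa5 and 0.92 for Apoc3 over the 34 pups. Of the differences of these 4 probes from control, the one farthest from 0 was 0.35, for Apoa5 in hypo+ males (95% interval from -0.07 to 0.76).

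Apob, the structural protein, was measured by 3 probes. At A_51_P380650, male controls were at 3.51, 3.61, 3.75 and 3.99 (3.72 ± 0.21 SD, n = 4) and male hypo+ pups at 4.06, 4.09, 4.26 and 4.26 (4.17 ± 0.11 SD, n = 4), so that every hypo+ male lay above every control, where 4.12% of all probes had groups without overlap. The log2 fold-change was 0.45 (SE 0.18, 95% interval from 0.07 to 0.83), with an adjusted p of 0.552 in limma, and it was positive on 3 of 3 slides. The brighter probes A_52_P441070 and A_51_P470542 gave 0.15 and 0.17 for the same pups, with intervals that included 0. In hypo+ females the 3 probes gave -0.01, 0.01 and 0.16.

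These results were read against all probes of each comparison. In hypo males, 0.0971% of all probes were called and 0 of 14 member probes, and 5.19% of all probes had an unadjusted p under 0.05, as did 1 of 14 members. For hyper males, 0.0753% were called and 2.98% had an unadjusted p under 0.05, with 0 of 14 members in either count. Among hypo+ males the shares were 0.0267% and 7.56%, with 0 and 2 of 14 members. Comparing hypo+ with hypo males, they were 0.369% and 9.18%, with 0 of 14 members in both.

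In females, 0.155% of all probes were called in hypo pups, 0.158% in hyper pups and 0.0219% in hypo+ pups, and 0.556% were called between hypo+ and hypo pups, with 0 of 14 members in each. At an unadjusted p under 0.05 stood 4.72%, 6.15%, 4.79% and 7.76% of all probes, and 2, 2, 0 and 0 of 14 members. Without overlap between the groups were 2.55% of all probes and 2 of 14 members (Lpl and Angptl4) in hyper females, and 4.12% and 1 of 14 (Apob) in hypo+ males. In the 6 other comparisons within a sex, 1.27% to 5.88% of all probes and 0 of 14 members had no overlap.

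Averaged over the sexes, 1.09% of all probes were called in hypo pups, 0.848% in hyper pups, 0.746% in hypo+ pups and 3.07% between hypo+ and hypo pups, with 0 of 14 members in each. The shares at an unadjusted p under 0.05 were 8.51%, 7%, 10.8% and 13.6%, with 3, 2, 2 and 0 of 14 members. The 3 members in hypo pups were Apoa4, Lpl and Angptl4. For the difference between the sexes in a response, 0% of all probes were called in each of the 3 treated groups and 0% between hypo+ and hypo pups. Unadjusted p under 0.05 was found for 1.04%, 1.26%, 1.33% and 2.11% of all probes, and for 0 of 14 members each time. The lowest unadjusted p of a member for a difference between the sexes was 0.0718 (limma), for Apoa4 between hypo+ and hypo pups.

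**Figure D3:**
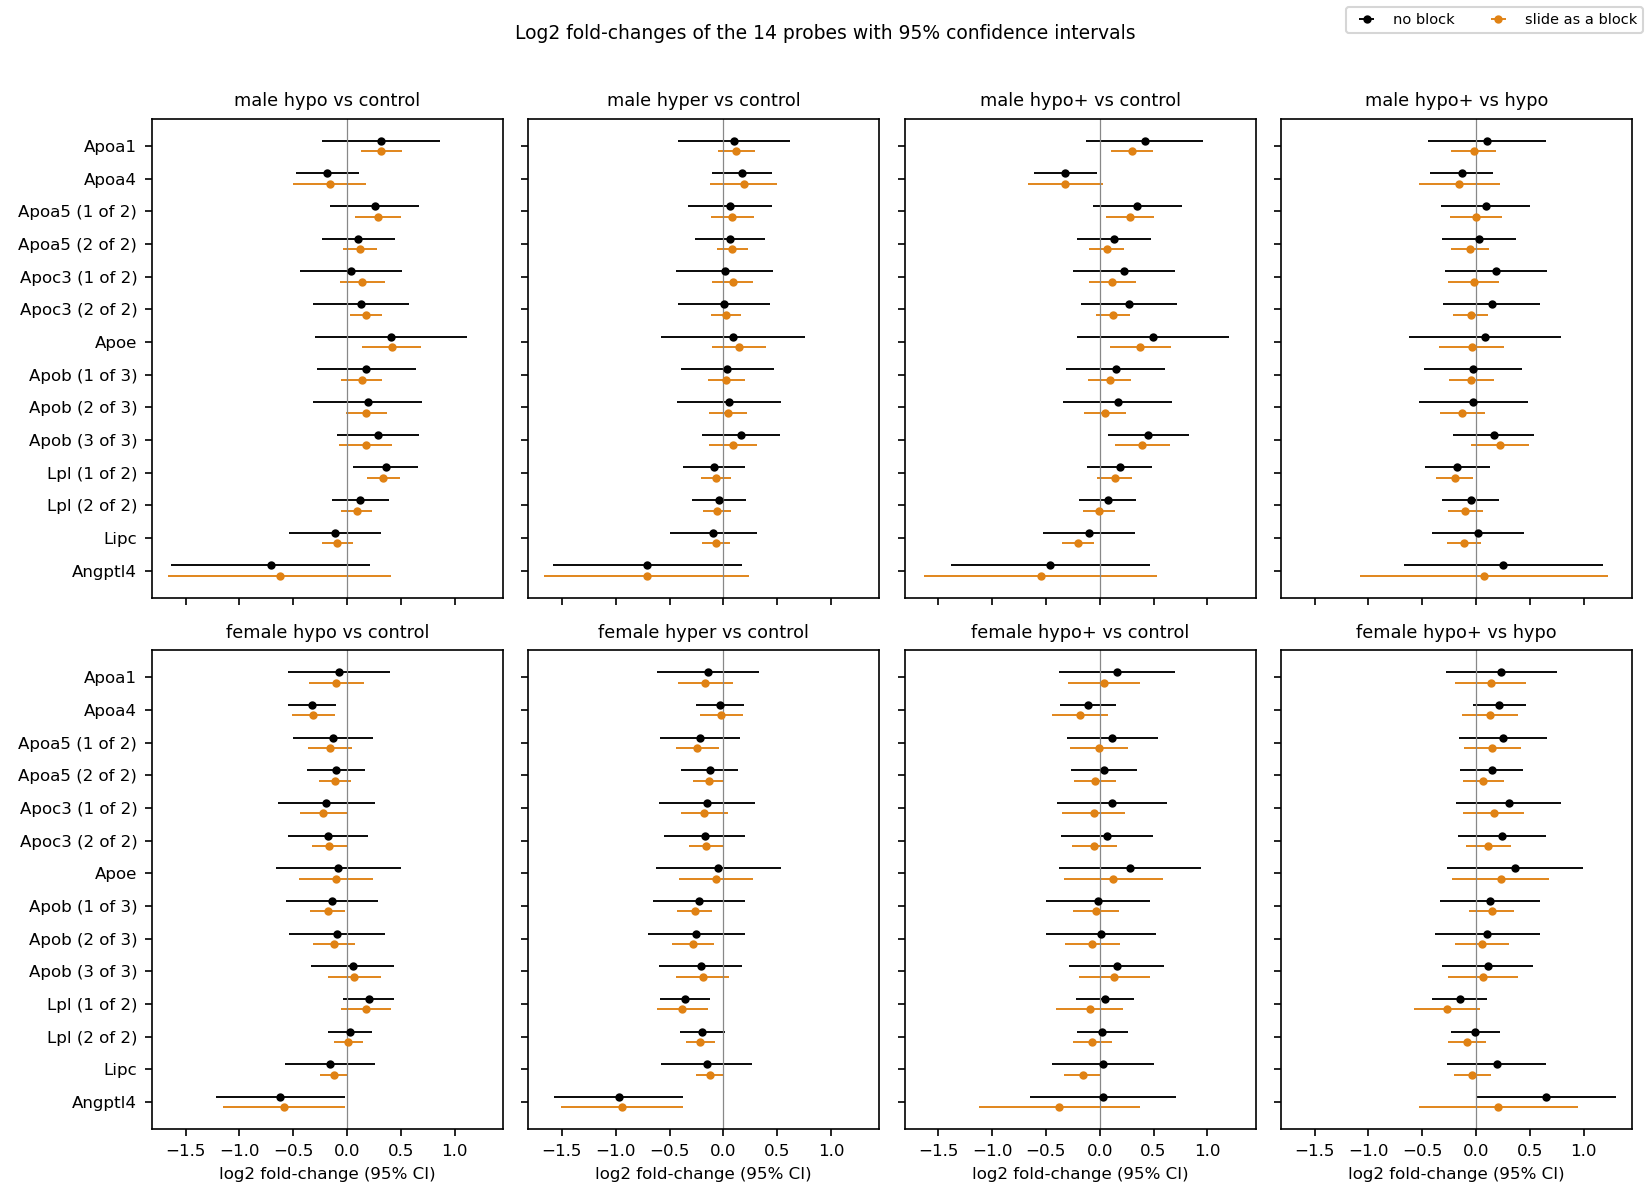
Log2 fold-changes (x axis) with 95% confidence intervals for the 14 probes (y axis) in the 8 comparisons within a sex, without a block (black) and with slide as a block (orange). All but 7 of the 112 black intervals include 0, and the widest are those of Angptl4.

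Over the 112 values within a sex, the median fold was 1.11 in either direction, and 7 intervals excluded 0. The half-width of the intervals was 0.21 to 0.93 on the log2 scale, so that the largest change still allowed by an interval was 1.64. In hyper males 10 of 14 member probes had a positive sign and in hyper females 0 of 14. The median of the members was 0.04 and -0.19, against 0.00 and -0.01 over all probes. Several of the apolipoprotein probes moved together from pup to pup, so the signs are not independent of each other. With slide as a fixed block, 0 of the 112 values were called and 22 had an unadjusted p under 0.05 (lowest adjusted p = 0.165, limma). With scan day as a fixed block these were 0 and 25 (0.148), and with slide as a random block 0 and 9 (0.185). The shares of all probes given above come from fits without a block. The counts of 22, 25 and 9 thus have no background beside them and are not read as an excess.

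The apolipoprotein genes of chromosome 9 varied together across the 34 pups, after the mean of each sex and treatment was removed. Pearson's r was 0.91 between Apoa1 and Apoc3 (rho 0.85), 0.93 between Apoa1 and Apoa5 (rho 0.82) and 0.93 between Apoc3 and Apoa5 (rho 0.86). Each had an adjusted p of 2e-05 over 6 pairs in a permutation test, two-sided. The unadjusted p of each was 1e-05, the smallest that this permutation test can give. Without the 2 pups farthest from the median, r was 0.89, 0.91 and 0.91. The permutations shuffled pups freely over slides, whereas the pups of slides B and H deviated upward together at Apoa1, Apoc3 and Apoa5. The p-values thus do not separate covariation between pups from that between slides. Apoa4, which lies between Apoc3 and Apoa5, followed less closely, with r = 0.46 to Apoa1 (adjusted p = 0.00928), 0.37 to Apoa5 (adjusted p = 0.0370) and 0.31 to Apoc3 (adjusted p = 0.0794) in the same permutation test. Their rho were 0.44 (adjusted p = 0.0150), 0.28 (adjusted p = 0.127) and 0.24 (adjusted p = 0.172) by permutation, so that the rank correlation of Apoa4 with Apoa5 did not pass the test. The Apoa4 probe was far dimmer, with a median signal of 365 in Cy5 and 51 in Cy3, against 17861 and 746.5 at the Apoc3 probe. Whether noise at low signal lowered the correlations of Apoa4 was not tested.

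The correlations were lower without slides B and H. There, the 3 high correlations were 0.73, 0.74 and 0.80 over 26 pups, and those of Apoa4 were 0.43, 0.20 and 0.04 to Apoa1, Apoa5 and Apoc3. The r of Apoa1 and Apoa4 passed the test there (adjusted p = 0.0417, permutation test), and their rho did not (0.40, adjusted p = 0.0684, permutation test). With slide means removed as well, over all pups, the correlations were 0.82, 0.88 and 0.75, and 0.33, 0.31 and 0.16. None of the last 3 passed the test by r, that of Apoa1 and Apoa4 included (adjusted p = 0.0814, permutation test). The rho of Apoa1 and Apoa4 did (0.38, adjusted p = 0.0410, permutation test). In the Cy5 signal alone the 3 high correlations were 0.43, 0.19 and 0.40, none of which passed the test (adjusted p = 0.0582, 0.284 and 0.0582, permutation test). The rho of Apoa1 and Apoc3 did (0.45, adjusted p = 0.0458, permutation test). Pups that share a dam are not independent, and the values within a sex were 0.89, 0.93 and 0.92 in males and 0.93, 0.94 and 0.94 in females.

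**Figure D4:**
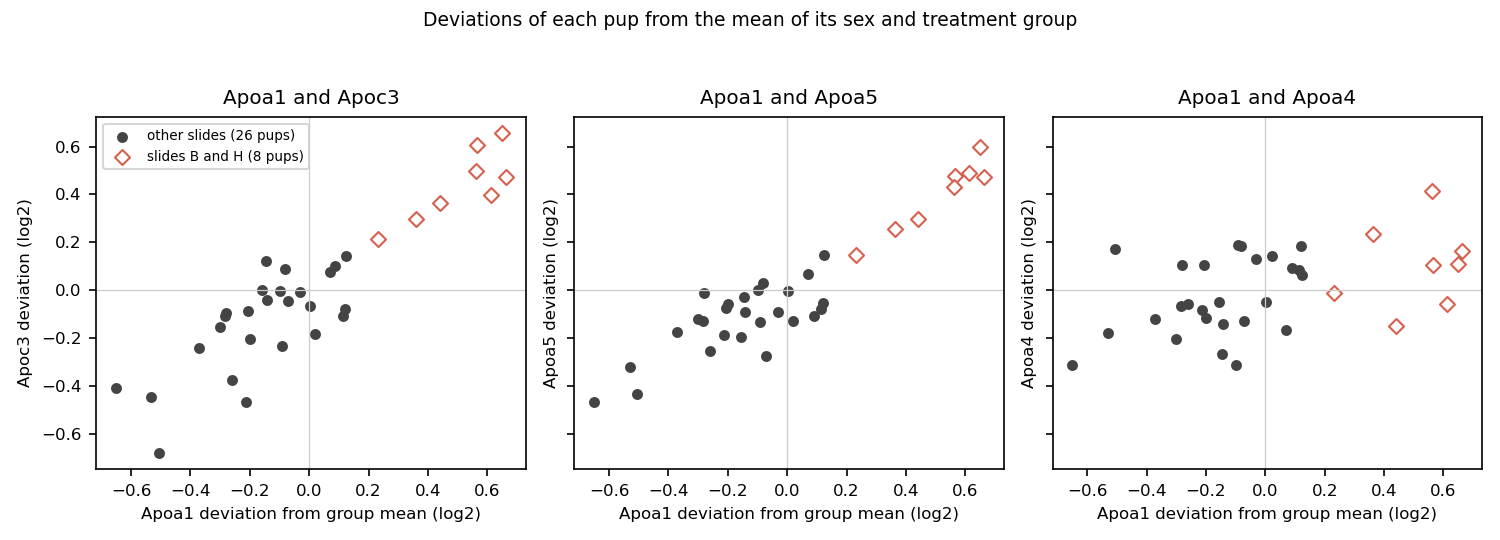
Deviation of each pup from the mean of its sex and treatment, on the log2 scale, for Apoa1 (x axis) against Apoc3, Apoa5 and Apoa4 (y axes), with diamonds for the 8 pups of slides B and H and points for the other 26. The diamonds form the upper right end of the first and second panels, and the points alone still rise from left to right there, with r = 0.73 and 0.74.

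Searched over all probes and the 34 pups, the genes whose log2 ratios were most like each member's were Itih2, Hpx and Apoa2 for Apoa1 (r = 0.98 each), Alb, Ahsg and C3 for Apoe (0.99, 0.98 and 0.98), Prodh2, Cyp2d12 and Bhmt for Apoa5 (0.97, 0.97 and 0.96), Slc6a13, Cyp2d12 and Serpinf2 for Apoc3 (0.96, 0.95 and 0.95), Amy1, Arg1 and Serpinc1 for Apob (0.96, 0.95 and 0.95) and Otc, Serpina3c and Slc26a1 for Lipc (0.93, 0.92 and 0.92). Lpl at its brighter probe, Apoa4 and Angptl4 had other partners. They lay above their group mean in 5, 5 and 3 of the 8 pups of slides B and H. The second Lpl probe lay above it in 8 of these 8 pups. Angptl4 deviated by -0.35 on average on these slides. Angptl4 was most like Lpin1 (0.89), Herpud1 (0.87) and Gskip (0.81), Lpl most like Mtarc2 (0.80), Gclc (0.77) and Sirt3 (0.76), and Apoa4 most like Fads2 (0.77), Cyp8b1 (0.77) and Ggct (0.70). These r are descriptions over pups that share slides, with no test. They were the highest of all probes and were taken with group means left in. With group means removed, they were 0.98 each for Apoa1, 0.97, 0.98 and 0.96 for Apoa5, and 0.96, 0.95 and 0.96 for Apoc3. Between Apoa1, Apoa5 and Apoc3 themselves, r was 0.91 to 0.93. Because the partners were picked for their high r, whether neighbours vary together more closely than other liver genes was not tested.

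Around the members, the wider pathway was read from lists of genes. Of 11 genes of lipoprotein assembly and secretion, all on the array with 17 probes, 5 of 136 tests were called, all of them higher, and 36 had an unadjusted p under 0.05 (limma). Over all probes, 0.0219% to 0.556% were called in a comparison within a sex and 2.98% to 9.18% had an unadjusted p under 0.05, which is the background of this and the following lists. Sort1, a sorting receptor that binds Apob on its way out of the cell, accounted for 4 of them. At probe A_52_P590396 its log2 ratio was 1.77 ± 0.27 (SD, n = 5) in female hypo, 2.37 ± 0.16 (SD, n = 4) in female control, 2.92 ± 0.05 (SD, n = 3) in female hypo+ and 3.23 ± 0.21 (SD, n = 5) in female hyper pups, lowest in hypo and highest in hyper pups. It was 0.86 higher in hyper than in control females (adjusted p = 0.0100, limma) and 1.15 higher in hypo+ than in hypo females (adjusted p = 0.00055, limma).

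Males held the same order at Sort1, with 1.77 ± 0.09 (SD, n = 4) in hypo, 2.40 ± 0.39 (SD, n = 4) in control, 2.78 ± 0.29 (SD, n = 4) in hypo+ and 3.24 ± 0.33 (SD, n = 5) in hyper pups. Only hypo+ against hypo was called there, at 1.02 (adjusted p = 0.0235, limma), and hypo+ and control males overlapped. No pathway probe was called in this comparison under normexp background, median centring or the scanner's log ratio. A second Sort1 probe (A_52_P568257) was called in hyper females, at 0.38 (adjusted p = 0.0240, limma). Apobec1, the enzyme that edits Apob mRNA, was 0.52 higher in hypo+ than in hypo females at probe A_51_P160754 (adjusted p = 0.00774, limma). Its second probe (A_52_P55029) was not called, with means of 0.53 in hypo+, 0.53 in control and 0.30 in hypo females. Sort1 and Apobec1 held all of the pathway's calls.

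The other lists held none. Of 10 other apolipoproteins, 9 were on the array, with 0 of 72 tests called and 2 at an unadjusted p under 0.05 (limma); Apoo, Apoc1 and Apool had the lowest p. Of 12 lipases and lipase regulators 11 were on the array, with 0 of 120 called and 15 at an unadjusted p under 0.05. Pnpla3, a lipid droplet protein of hepatocytes, came closest at 1.09 in hyper females (adjusted p = 0.0715, limma), followed by Pnpla2 and Gpihbp1. HDL remodelling, with Abca1, Abcg1 and Scarb1 at the lowest p, gave 0 of 64 and 5 for its 7 genes. Lipoprotein receptors gave 0 of 104 and 19 for 11 of 12 genes, led by Sdc1, a heparan sulphate proteoglycan that binds particles (-0.42 between hypo+ and hypo females, adjusted p = 0.0780, limma) and Vldlr.

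Markers of other cell types that make lipoprotein or lipase genes were measured beside them, and no marker was called. Adipocyte markers, led by Fabp4 and Cidec, had a summed Cy5 signal between 6569 and 37001, with the highest pup in the male hyper group. Macrophage markers, led by Cd5l and Marco, lay between 33387.5 and 93152. Of 8 genes listed as enterocyte markers, 5 were on the array. In male hypo pups, 3 of them lay above the limit of the negative controls in every pup and 1 below it in every pup. Their sum, led by Fabp2 and Apob48r, lay between 13267 and 31160, and which cells gave this signal was not tested. Of the acinar markers, among them Amy2a5 and Pnliprp1, 39 of 104 tests had an unadjusted p under 0.05 (limma), with list medians from -2.01 to 0.68 across comparisons. In hypo, hyper and hypo+ males against control these were 12, 12 and 10 of 13 probes. Those comparisons share the male controls 832 and 522, whose acinar sums were 167905 and 185052. Markers of erythroid cells (Hba-a1, Alas2) and of endothelial and stellate cells (Dcn, Reln) had 7 of 80 and 2 of 96.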

How the data were processed

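Liver RNA of 34 pups was hybridized on Agilent 2-colour arrays, 1 pup per array, on 11 slides scanned in 6 batches. The deposited scanner files hold the median signal intensity of both channels per spot, background marks and a log10 ratio, as the authors' scanner software wrote them, and the authors' own series values, whose log2 scale was inferred by comparison with the scanner values. From the median intensities, log2 Cy5/Cy3 was computed and loess-normalized within each array with limma 3.58.1 in R 4.3.3. The authors' methods name MAANOVA with permutation p-values, for which limma was used here. The 1639 control spots and the 77 to 212 marked spots of an array were left out of 43379 non-control spots, and spots of a probe were averaged. Sexes were fitted separately, with 4 groups each, as in the methods, and the Benjamini-Hochberg adjustment covered all 41174 probes, with calls at 0.05. Averages over the sexes and differences between them came from a single fit of 8 groups.

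Of 33541 accessions, 16806 matched a gene symbol. A probe was above the negative controls when its signal exceeded their 5% trimmed mean plus 3 trimmed SDs, a limit of 85.0 to 106 by array. Median Cy5 intensity was 146 to 199 and median Cy3 64 to 100 per array. The number of arrays limits the precision. The members, the gene lists and the tests were chosen with earlier results of these data known. In the pathway lists, genes with a called probe were named, and otherwise those with the lowest p. Some results are not reported here. The fits were tested on simulated data. Alternatives were the background correction, centring, the authors' values, the scanner's log ratio, Cy5 alone, marked spots, a filter on dim probes, averaged probes, slide or scan day as a block, the groups in the fit, and leaving out each array. The fits and correlations without slides B and H, and the correlations after removing slide means, were chosen after seeing the data.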

Additional observations from a re-analysis of the deposited data

Results flagged for a closer look

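Of 98 sets of a probe in a group of 4 or 5 pups, 9 held a pup whose gap to the nearest other pup passed Dixon's 95% critical value. Chance flags about 1 in 20 groups, and the sets share pups and slides. All 9 pups were the highest of their group, and all 9 were on slide B or H. For Lipc this was 3.63 in male hyper, 3.86 in female control, 3.69 in female hyper and 3.87 in female hypo pups. For Apoa5 it was 5.54 in male hypo+ pups at A_51_P259930, and 4.83 in male hypo and 4.80 in female hypo pups at A_52_P292404. Apoe reached 5.92 in female hyper pups, and Apob reached 4.65 in female hypo pups at A_51_P380650. No pup was set apart in this way at Apoa1, Apoa4, Apoc3, Lpl or Angptl4.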

How the results depend on the processing

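Within a sex, no member probe was called under any alternative. Of 3472 values, 3213 had the sign of the reported value, and 36 of 112 probes and comparisons had it under every alternative, leaving out each array included. Over all comparisons, 116 of 168 signs were the same with median centring, 118 with Cy5 alone and 143 with normexp background or with slide as a fixed block. In hyper pups averaged over the sexes, 1 member probe was called under Cy5 alone (Apoa5, -0.52, adjusted p = 0.0216, limma), and 0 to 1 when leaving out 1 array (Angptl4 without male control 832). Calls of pathway probes between hypo+ and hypo males were 0 under normexp, median centring and the scanner's log ratio, against 1. In hyper females they were 1 under normexp, median centring and Cy5 alone and 0 under the scanner's log ratio, against 2, and between hypo+ and hypo females 1 under median centring, against 2. The cause was not tested. Under Cy5 alone, r was 0.43 for Apoa1 and Apoc3, 0.33 for Apoa1 and Apoa4, 0.19 for Apoa1 and Apoa5, 0.40 for Apoc3 and Apoa5 and 0.27 for Apoa4 and Apoa5, none past the threshold, although the rho of Apoa1 with Apoc3 (0.45) and with Apoa4 (0.41) were. Median centring gave 0.40 for Apoc3 and Apoa4, past it. For Apoa1 and Apoa4, r missed it in males alone (0.46), females alone (0.46) and with slide means removed (0.33), where their rho (0.38) passed it. For Apoa4 and Apoa5, r missed it in males (0.45), females (0.26), with slide means removed (0.31) and without slides B and H (0.20). Replicate numbers are animal numbers that no groups share, so pups were paired only by slide.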
